A study of Xenopus laevis with 12 samples.

Results

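The pou5f3 genes are the frog's class V POU genes, relatives of the mammalian pluripotency factor Oct4, and 6 of the 18892 rows of the count table carry a name that starts with pou5f3. These rows were pou5f3.3.L, pou5f3.3.S, pou5f3.2.L, pou5f3.2.S, pou5f3.L and pou5f3.S, and all 6 passed the filter on low counts. The letters L and S mark the long and short chromosome sets of the allotetraploid Xenopus laevis, and the number marks the tandem copy. In RefSeq pou5f3.3, pou5f3.2 and pou5f3.1 follow each other in that order on chromosomes 8L and 8S. The rows pou5f3.L and pou5f3.S have no copy number and match no RefSeq symbol. They are described under those names and not equated with pou5f3.1.L and pou5f3.1.S, of which no value was analysed here under their own names.

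Whole embryos were collected at stage 9.5, labelled early gastrula, in 4 groups of 3 libraries with RNA from 3 embryos each. The control group is labelled only as Control, and what it received is not stated. The genistein group was given this soy isoflavone, a tyrosine kinase inhibitor, from the 4-cell stage. The BIO group (6-bromoindirubin-3'-oxime) and the Chiron group (CHIR 99021) were given an inhibitor of GSK3, a kinase whose activity keeps beta-catenin low, and both serve as Wnt activators. The labels state no doses, strain or clutches. The compounds therefore cannot be called dose-matched. No start of treatment is given here for BIO and Chiron, so the exposure times cannot be called matched either. Whether the 3 libraries of a group came from separate clutches is not known, so p-values reflect library spread that could be technical.

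Pou5f3 proteins bind octamer DNA, often beside a SoxB1 protein such as Sox3, and in the frog they keep embryonic cells uncommitted and restrain mesendoderm formation. The copies differ in timing. Transcripts of pou5f3.3 (Oct60) are loaded into the egg and decline as the zygotic genome takes over, whereas pou5f3.2 (Oct25) has a maternal pool and is transcribed again by the gastrula embryo. The mammalian counterpart works with Sox2 and with factors of the Klf, Sall and Myc families.

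Library totals ran from 11091927 to 15486533 counts, so the floor for 0 counts in 1 library (3 counts, counting error only) was 0.185 to 0.288 CPM (counts scaled for library size). The label of an early gastrula was set beside marker genes, which cannot test it. Any earlier filter of the rows is not known, so a missing symbol need not mean a missing transcript. Mesendoderm genes switched on at this stage were present in 40 rows, while only 2 rows of 23 symbols for differentiated muscle, blood, neurons and gut were found, at most at 2.37 CPM. Control 1, genistein 1 and genistein 3 stood apart from the other 9 libraries. Mitochondrially encoded transcripts took 13.5%, 14.1% and 8.37% of their counts, against 0.553% to 4.23% elsewhere. Their summed maternal and germ plasm genes stood at 4868, 5993 and 5121 CPM against 3267 to 3840. Within the control and genistein groups they also had the higher mesendoderm sums, 369.8, 430.04 and 367 CPM against 111 to 172. Calls and signs of the pou5f3 rows and ratios that changed without these libraries are given both ways. For the levels of pou5f3.3 in genistein, no value without all 3 of them is given. Values of the other named genes, such as sox3.L and sall4.S, are from all 12 libraries only.

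The maternal copy pou5f3.3 held most of the pou5f3 reads, and its mean level was highest in genistein. Its L row stood at 589, 568 and 563 CPM in control replicates 1 to 3, and at 785, 653 and 746 CPM in genistein. BIO libraries held 631, 636 and 653 CPM and Chiron libraries 612, 609 and 617 CPM. Each treated group lay wholly above the controls, as it did for 7.48% of all genes in genistein, 8.13% in BIO and 11.1% in Chiron. The genistein libraries were the most spread of the 4 groups. The control mean was 574 ± 13.8 CPM, beside 728 ± 67.8 for genistein, 640.1 ± 11.8 for BIO and 613 ± 4.13 for Chiron (SD, n = 3 each). None of the differences from control passed: the log2 fold change was 0.34 ± 0.12 (SE) in genistein, 0.16 ± 0.12 in BIO and 0.10 ± 0.12 in Chiron (edgeR quasi-likelihood adjusted p = 0.153, 0.688 and 0.745). Of all 18791 genes tested, 3.36% (632 genes, but 4757 without genistein 2) were called in genistein against control and 0.0266% in BIO against control. In Chiron against control 0 genes were called by edgeR, 0% of those tested, while 1131 genes (6.02%) had an unadjusted p under 0.05 and DESeq2 called 55.

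The S row of pou5f3.3 gave 471, 388 and 375 CPM in control, 592, 428 and 569.9 CPM in genistein, 443, 389.9 and 438 CPM in BIO, and 408, 421 and 409.8 CPM in Chiron. The 3 libraries that stood apart were the 3 highest, and the groups overlapped except for genistein above Chiron, an order seen for 13% of all genes. Against control the S row stood at 0.37 ± 0.15 in genistein (edgeR adjusted p = 0.207), at 0.04 ± 0.15 in BIO and at 0.01 ± 0.15 in Chiron (log2 ± SE). The 95% interval of the genistein difference, not adjusted for the number of genes, was 0.03 to 0.70 (0.07 to 0.62 for the L row). The 95% interval of the Chiron difference was -0.33 to 0.34. The sign of this last value turned in 4 of the 12 fits without 1 library and with RLE size factors (-0.02). For pou5f3.3.L the genistein difference passed with the mitochondrial share as covariate (0.32 ± 0.08, edgeR adjusted p = 0.0139), with DESeq2 (0.36, adjusted p = 0.000441) and without genistein 2 (0.43, edgeR adjusted p = 0.0222), where pou5f3.3.S passed as well (0.51, edgeR adjusted p = 0.02). These fits called 19.4%, 9.66% and 25.3% of all genes in this comparison, against 3.36% in the main fit. The last of them leaves genistein 1 and genistein 3, which both stood apart.

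**Figure D1:**
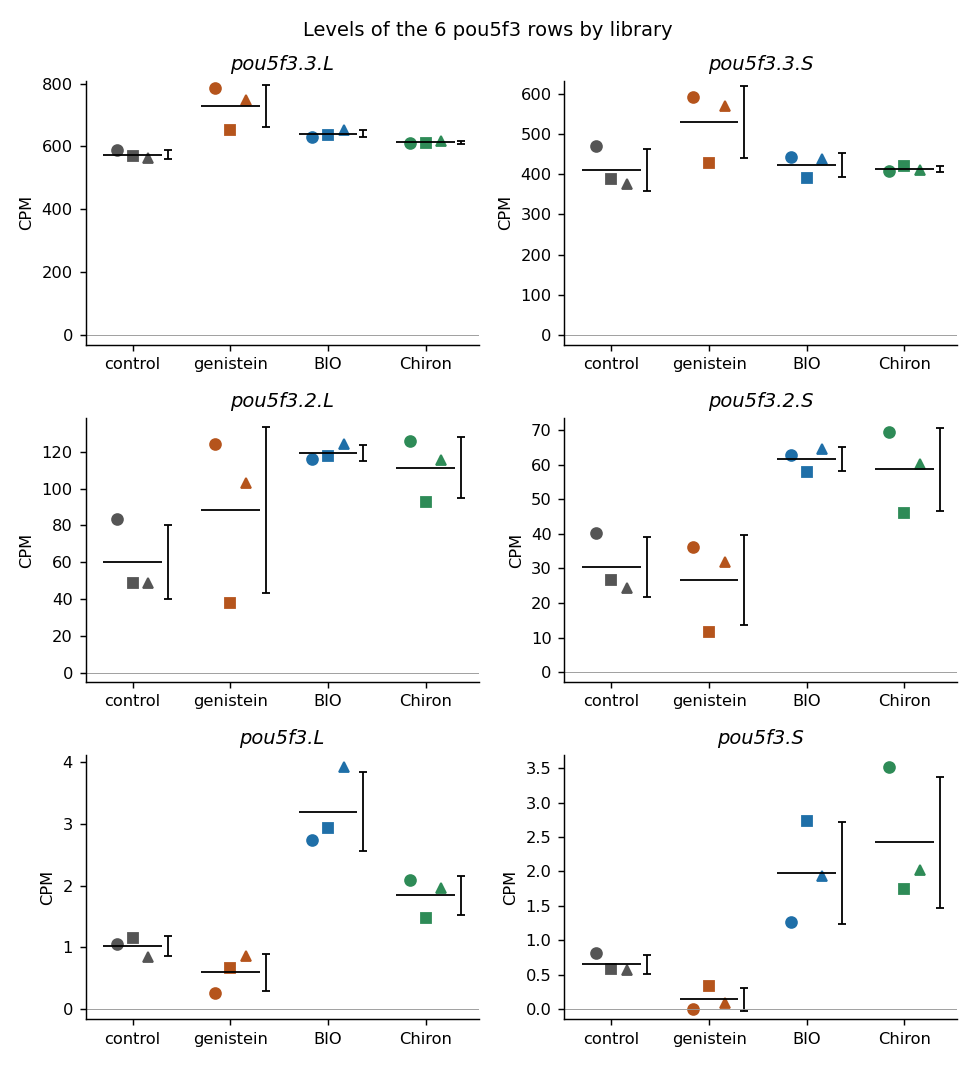
Expression of the 6 pou5f3 rows in CPM (linear axes) in each of the 12 libraries. Circles, squares and triangles are replicates 1, 2 and 3, horizontal lines are group means and bars are ± SD (n = 3); both pou5f3.2 rows lie higher in BIO and Chiron than in control, and pou5f3.L and pou5f3.S are lowest in genistein.

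The copy pou5f3.2, which the gastrula embryo transcribes, stood 1.85-fold to 2.03-fold above control in the GSK3 inhibitor groups, and each of their 6 libraries lay above all 3 controls on both rows. Of all genes, 8.13% lay wholly above control in BIO and 11.1% in Chiron. The differences passed the test only in the fits, described next, that set aside or modelled the libraries that stood apart. Leaving out any 1 library, control 1 included, brought no call. The lowest edgeR adjusted p was then 0.102 for L and 0.0899 for S in BIO, and 0.201 and 0.165 in Chiron. Genistein 1 and genistein 3 are in neither comparison, but their group shares the estimate of the spread. The L row stood at 83.3, 48.5 and 48.9 CPM in control replicates 1 to 3, at 116, 118 and 124 CPM in BIO, and at 126, 93.0 and 116 CPM in Chiron. The S row stood at 40.3, 26.6 and 24.4 CPM in control, at 62.7, 57.8 and 64.6 CPM in BIO, and at 69.6, 46.0 and 60.3 CPM in Chiron. In both rows control 1 was the highest control and BIO the tightest group.

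In the main edgeR fit of all 12 libraries these differences did not pass. In BIO the L row was 1.98-fold higher (log2 0.99 ± 0.36 SE) and the S row 2.03-fold (1.02 ± 0.34), both at an edgeR adjusted p of 0.688. In Chiron the L row was 1.85-fold higher (0.89 ± 0.36) and the S row 1.93-fold (0.95 ± 0.34), both at 0.645. Without control 1, genistein 1 and genistein 3 all 4 differences passed. The L row then rose by 1.28 ± 0.12 in BIO and 1.18 ± 0.12 in Chiron (log2 ± SE; edgeR adjusted p = 0.00032 and 0.000501). The S row rose by 1.27 ± 0.15 and 1.19 ± 0.15 (edgeR adjusted p = 0.00167 and 0.0031). With the mitochondrial share as covariate all 4 passed as well, at 1.52 and 1.43 in BIO and 1.33 and 1.29 in Chiron for L and S (edgeR adjusted p = 0.0106, 0.0239, 0.0217 and 0.0442). This share was 13.5% in control 1 and 0.553% to 2.66% in the BIO and Chiron libraries, so the 2 fits are not separate checks. The covariate fit called 0.979% of all genes in BIO against control and 0.623% in Chiron against control. Genes called in these 2 comparisons numbered 205 and 146 in the former fit, and 184 and 117 in the latter.

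**Figure D2:**
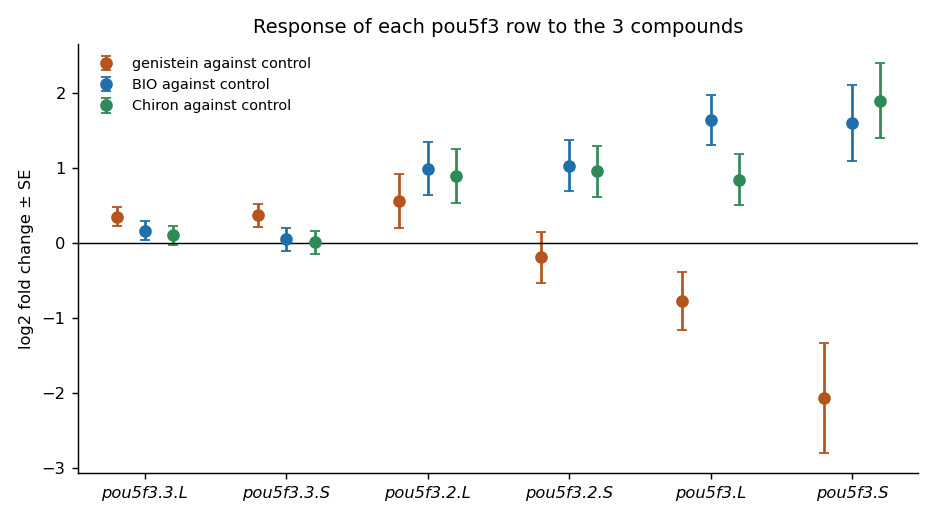
Log2 fold change ± SE (edgeR, all 12 libraries) of each pou5f3 row in genistein, BIO and Chiron against the same 3 control libraries. BIO and Chiron values lie together near 0 for pou5f3.3 and near 1 for pou5f3.2, while genistein values run from 0.55 for pou5f3.2.L to -2.07 for pou5f3.S.

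No difference between BIO and Chiron passed the test for the numbered copies, although BIO lay wholly above Chiron on pou5f3.3.L (631 to 653 against 609 to 617 CPM), as it did for 4.59% of all genes. The log2 difference between them was 0.10 for pou5f3.2.L, with a 95% interval of -0.67 to 0.87, and 0.07 for pou5f3.2.S (-0.66 to 0.81). It was 0.06 for pou5f3.3.L (-0.21 to 0.34) and 0.04 for pou5f3.3.S (-0.30 to 0.37). The sign of both pou5f3.2 values turned without Chiron 2, to -0.02 and -0.07. In this comparison edgeR called 0 genes (0% of those tested), 217 (1.15%) had an unadjusted p under 0.05, and DESeq2 called 2.

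In genistein the level of pou5f3.2 differed more among the replicates than between the genistein and control means. The L row stood at 124, 37.6 and 103 CPM in genistein replicates 1 to 3, and the S row at 36.1, 11.7 and 32.0 CPM. Genistein 2 was the lowest of all 12 libraries on both rows, while genistein 1 reached the BIO range on the L row. The group means were 88.3 ± 45.2 CPM for L and 26.6 ± 13.0 CPM for S (SD, n = 3), against 60.2 ± 20.0 and 30.4 ± 8.64 CPM in control. The fitted differences from control were 0.55 ± 0.35 for L and -0.19 ± 0.34 for S (log2 ± SE, edgeR adjusted p = 0.392 and 0.785). Against BIO and Chiron the S row stood at -1.22 ± 0.34 and -1.14 ± 0.34 (edgeR adjusted p = 0.0672 and 0.075). On this row genistein lay wholly below both, as for 14.4% and 16.4% of all genes. The L row stood at -0.43 ± 0.35 and -0.34 ± 0.35, with overlap (edgeR adjusted p = 0.399 and 0.509).

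The higher values lay in the libraries that stood apart. In genistein and in control the library or libraries with the higher pou5f3.2 level were those with the higher mitochondrial share, maternal sum and mesendoderm sum, and the part of these measures in the genistein values was not tested. Without genistein 2, the L row rose by 0.93 (edgeR adjusted p = 0.0165). That fit called 25.3% of all genes in this comparison, against 3.36% in the main fit. A fit without control 1, genistein 1 and genistein 3 leaves genistein 2 alone in its group and assumed to vary like the others. There the L row stood at -0.38 ± 0.16 and the S row fell by 1.13 ± 0.23. The direction of the L row in genistein turned with the libraries used, and so did that of the S row (0.06 without control 1 and 0.18 without genistein 2). In bulk RNA of whole embryos, fewer cells that hold a transcript and less transcript per cell cannot be told apart.

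**Figure D3:**
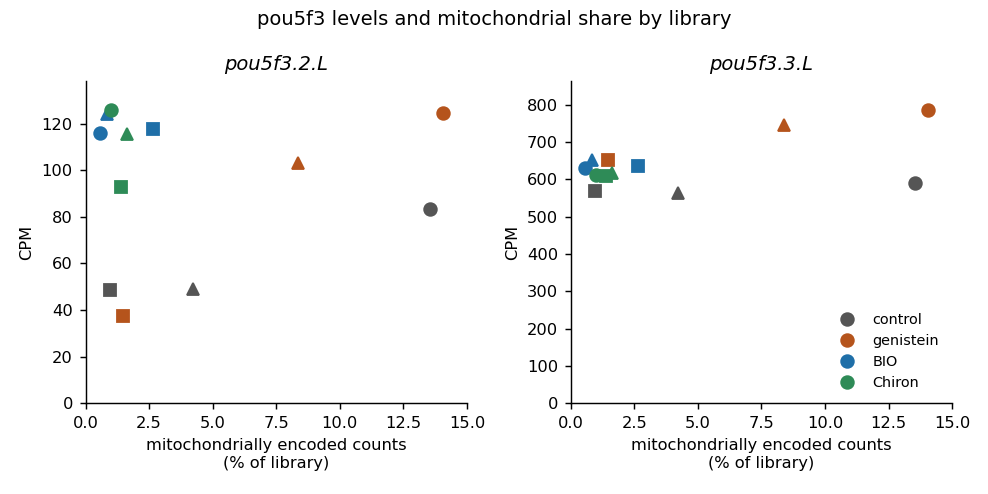
Level of pou5f3.2.L (left) and pou5f3.3.L (right) in CPM against the share of mitochondrially encoded counts in percent, 1 point per library, circles, squares and triangles for replicates 1, 2 and 3. Genistein 1, genistein 3 and control 1 lie at the right, at 8.37% to 14.1%, and hold the highest pou5f3.2.L values of their groups.

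The balance of the L and S copies of pou5f3.2 was shifted in genistein, and it was the same in all 3 genistein libraries although their levels were not. The L row held 3.45, 3.21 and 3.22 times the counts of the S row in genistein replicates 1 to 3. This ratio was 2.07, 1.83 and 2.01 in control, 1.85, 2.04 and 1.92 in BIO, and 1.81, 2.02 and 1.92 in Chiron. All 3 genistein libraries lay above the other 9, which all fell between 1.81 and 2.07. Of the pou5f3.2 counts, the S copy thus made up 22.5% to 23.7% in genistein and 32.6% to 35.6% in the other libraries. A ratio of 2 counts within 1 library needs no scaling between libraries.

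In a model of both copies with library as a term, the L to S ratio of pou5f3.2 rose 1.68-fold in genistein against control (log2 0.75 ± 0.09 SE, edgeR adjusted p = 0.00103 over 5134 homeolog pairs). Against BIO it was 1.70-fold and against Chiron 1.72-fold higher (0.77 ± 0.09 and 0.79 ± 0.09, edgeR adjusted p = 0.00178 and 0.00155). By p-value pou5f3.2 ranked 13 of 5134 pairs in the comparison with control, and 161 pairs had a larger increase of the ratio. Other pairs shifted in genistein as well. The model called 8.16% of the pairs against control, 6.33% against BIO and 4.11% against Chiron (419, 325 and 211 pairs), and in 4.60% of the pairs the genistein libraries all lay above the other 9. It called 0.214% of the pairs in BIO against control and 0.0195% in Chiron against control, where pou5f3.2 stood at -0.02 ± 0.09 and -0.04 ± 0.09, and 0% in BIO against Chiron. The counts of pairs called moved widely when 1 library was left out. Against control they ran from 212 without control 2 to 1073 without genistein 2, and control 3 and genistein 3 also moved them (238 and 275). Against BIO they ran from 28 without BIO 3 to 1484 without genistein 2, and each library of both groups and Chiron 3 moved them by over 1.5 times. Against Chiron they ran from 23 without Chiron 1 or Chiron 3 to 1478 without genistein 2, and each library of both groups moved them so.

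The shift of pou5f3.2 was as large without the libraries that stood apart (0.75 ± 0.16, edgeR adjusted p = 0.0106), and it stayed between 0.70 and 0.79 when any 1 of the 12 libraries was left out, with an edgeR adjusted p of at most 0.00551. An exact permutation test over the 4 groups, not planned in advance, gave p = 0.0154 for this ratio (adjusted p = 0.0231 over the 3 copies). The exact test did not pass with the replicate number as a block (adjusted p = 0.0677). Without 1 library at a time it passed in 11 of 12 tests (highest adjusted p = 0.0512). Nor did it pass without the 3 libraries that stood apart, which leaves 1 genistein library. The neighbouring copy pou5f3.3 showed no such shift. Its L to S ratio was 1.33, 1.53 and 1.31 in genistein and 1.25, 1.46 and 1.503 in control, groups that overlap, with a difference of -0.02 ± 0.08 (log2 ± SE, edgeR adjusted p = 0.93). The L to S ratio of the unnumbered gene, with 5 S counts in genistein, passed the exact test (p = 0.00721, adjusted p = 0.0216). With the replicate number as a block this ratio did not pass (exact test adjusted p = 0.0677). Its group mean (log2) was highest in genistein (1.72) and lowest in Chiron (-0.33). For the exact tests of L to S ratios 1 count was added to both copies. Genistein 1 held 3 L and 0 S counts of the unnumbered gene, so its ratio there rests on the added count. With 0.5 counts added instead, the calls of all 3 ratios were the same. In the model of both copies its genistein value was 1.297 ± 0.782 against control, 1.248 ± 0.723 against BIO and 2.325 ± 0.720 against Chiron (log2 ± SE). None passed (edgeR adjusted p = 0.354, 0.285 and 0.0865), and 20 pairs had a larger increase against control. Homeologs are similar in sequence, and how the authors' counting treated reads that fit both copies is not given, so the ratios carry that uncertainty.

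**Figure D4:**
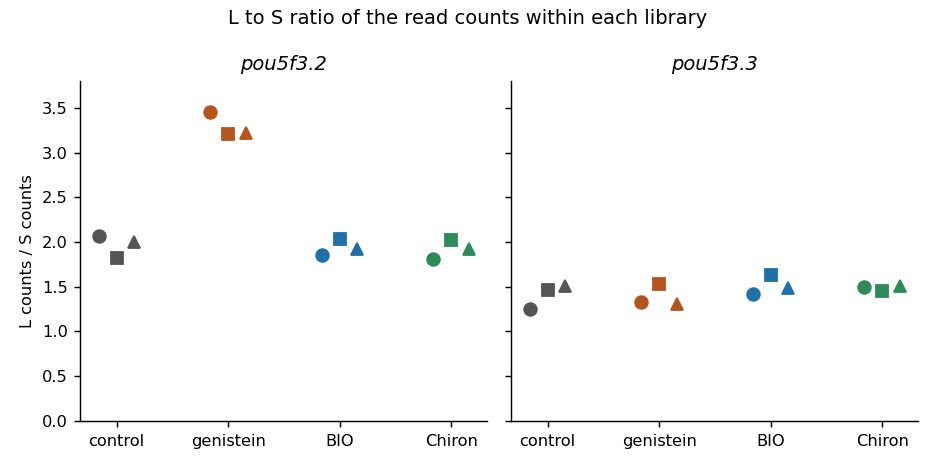
Counts of the L row divided by counts of the S row within each library, for pou5f3.2 (left) and pou5f3.3 (right), with circles, squares and triangles for replicates 1, 2 and 3. For pou5f3.2 the 3 genistein libraries lie at 3.21 to 3.45 and the other 9 between 1.81 and 2.07, while for pou5f3.3 the 4 groups overlap.

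**Figure D5:**
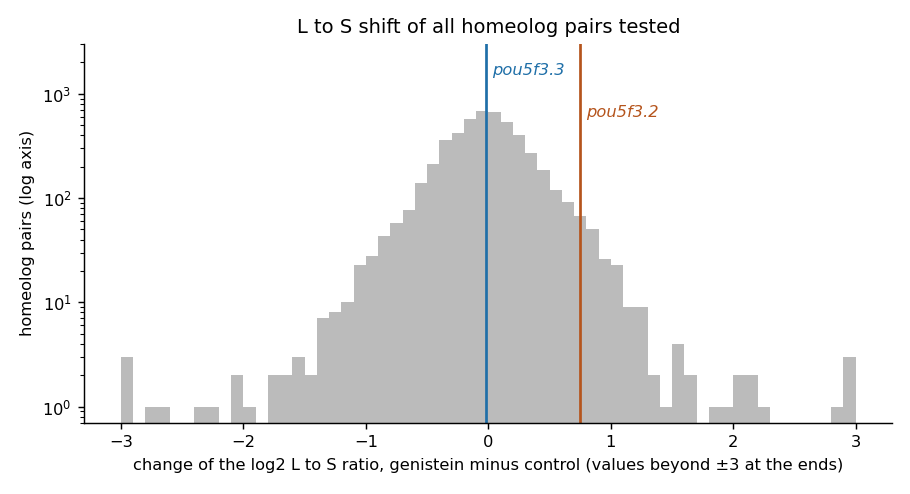
Histogram (log count axis) of the change in the log2 L to S ratio from control to genistein for 5134 homeolog pairs. The vertical lines mark pou5f3.2 at 0.75 and pou5f3.3 at -0.02.

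The unnumbered rows had few reads, and their levels were highest under the GSK3 inhibitors and lowest in genistein. The row pou5f3.L held 13, 18 and 12 counts in control replicates 1 to 3, 3, 8 and 9 in genistein, 39, 45 and 57 in BIO, and 34, 23 and 29 in Chiron. In CPM these were 1.06, 1.16 and 0.852 in control, 0.269, 0.660 and 0.865 in genistein, 2.74, 2.93 and 3.93 in BIO, and 2.09, 1.48 and 1.96 in Chiron. BIO lay above Chiron and Chiron above control, as for 4.59% and 11.1% of all genes. Genistein overlapped with control only by genistein 3. The row pou5f3.S held 10, 9 and 8 counts in control, 0, 4 and 1 in genistein, 18, 42 and 28 in BIO, and 57, 27 and 30 in Chiron. Its mean was 0.655 ± 0.140 CPM for control, 0.142 ± 0.170 for genistein, 1.98 ± 0.737 for BIO and 2.42 ± 0.950 for Chiron (SD, n = 3 each). Genistein lay below all other groups (9.67% of all genes did so against control, 14.4% against BIO and 16.4% against Chiron). BIO and Chiron lay above control, as for 8.13% and 11.1% of all genes, and overlapped with each other. The genistein mean of pou5f3.S lies under the floor of 0.248 to 0.288 CPM for 0 counts in 1 genistein library, so the size of its folds is imprecise.

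Both unnumbered rows fell in genistein relative to the GSK3 inhibitors. Against BIO, pou5f3.L stood at -2.41 ± 0.36 and pou5f3.S at -3.67 ± 0.66 (log2 ± SE, edgeR adjusted p = 0.0102 and 0.016), where 3.63% of all genes were called and 2.94% were lower. Against Chiron they stood at -1.62 ± 0.37 and -3.96 ± 0.65 (edgeR adjusted p = 0.047 and 0.0111), where 2.35% of all genes were called and 2.17% were lower. Without the 3 libraries that stood apart the values were -2.56 for pou5f3.S against BIO, and -1.46 for pou5f3.L and -2.84 for pou5f3.S against Chiron, none of them past the test (edgeR adjusted p = 0.0853, 0.167 and 0.0753). With L and S summed, the unnumbered gene stood at -2.79 ± 0.39 against BIO and -2.51 ± 0.39 against Chiron (edgeR adjusted p = 0.00732 and 0.00847). Fits without 1 library kept the call of pou5f3.L against Chiron in 2 of 12 and against BIO in 11 of 12, and that of pou5f3.S in 10 and 9 of 12. Without BIO 3 pou5f3.L against BIO stood at -2.23 (edgeR adjusted p = 0.0543). The calls of pou5f3.S against BIO were lost without genistein 1, genistein 3 or BIO 3 (-3.12, -3.47 and -3.69), and those against Chiron without genistein 3 or Chiron 1 (-3.76 and -3.59).

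Against control no unnumbered row passed in the main fit. In BIO pou5f3.L stood at 1.63 ± 0.33 and pou5f3.S at 1.60 ± 0.51 (edgeR adjusted p = 0.25 and 0.688), and in Chiron at 0.84 ± 0.34 and 1.89 ± 0.50 (both 0.645). In genistein they stood at -0.78 ± 0.39 and -2.07 ± 0.73 (edgeR adjusted p = 0.278 and 0.146). DESeq2 called pou5f3.L in BIO (1.63 ± 0.36, adjusted p = 0.00352). Genistein lay wholly below control on pou5f3.S, but the difference did not pass. Without genistein 2, pou5f3.S fell by 3.56 (edgeR adjusted p = 0.027), in a fit that called 25.3% of all genes against 3.36% in the main fit. Without the 3 libraries that stood apart pou5f3.L rose by 1.64 in BIO and passed, in a fit that leaves 1 genistein library. Between BIO and Chiron pou5f3.L stood at 0.79, with a 95% interval of 0.11 to 1.47, and pou5f3.S at -0.29 (-1.27 to 0.69), neither past the test (edgeR adjusted p = 0.99997 for both).

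Within the libraries, the ratios of the copies to each other differed among the groups in the test of all 12 libraries. With L and S counts summed, pou5f3.2 had 11.7, 7.85 and 7.80 counts per 100 counts of pou5f3.3 in the controls. Genistein replicates 1 to 3 had 11.7, 4.56 and 10.3, BIO had 16.6, 17.1 and 17.3, and Chiron had 19.2, 13.5 and 17.1. Both GSK3 inhibitor groups lay above all control and genistein libraries, and how many other gene ratios do so was not counted. An exact permutation test over the 4 groups gave an adjusted p of 0.0262 for this ratio, 0.00117 for the unnumbered gene to pou5f3.3 and 0.0262 for the unnumbered gene to pou5f3.2 (p = 0.0262, 0.00039 and 0.0254, adjusted over the 3 ratios). The first and the last of these passed in 5 of the 12 tests without 1 library, and the ratio of the unnumbered gene to pou5f3.3 passed in all 12. Without the 3 libraries that stood apart the ratio of the unnumbered gene to pou5f3.2 did not pass (adjusted p = 0.24). A comparison of 2 groups of 3 cannot go below p = 0.1 by permutation. Summed over all 6 rows, pou5f3 stood at 0.35 ± 0.16 in genistein, 0.21 ± 0.16 in BIO and 0.16 ± 0.16 in Chiron against control (log2 ± SE, none past the edgeR test).

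Partners of the pou5f3 proteins and other pluripotency genes were followed as a list. Of 41 tested rows, 7 fell in genistein and none rose, against 3.00% and 0.362% of all genes, with a median of 0.00 on the log2 scale beside 0.03 over all genes. The SoxB1 gene sox3.L, a partner at octamer sites, fell from 247 ± 29.4 to 144 ± 25.5 CPM (SD, n = 3 each; log2 -0.78 ± 0.18 SE, edgeR adjusted p = 0.038). Its homeolog sox3.S stood at 301 ± 16.1 and 309 ± 67.0 CPM (0.04 ± 0.15). The L to S ratio of sox3 fell by 0.80 ± 0.10 (log2 ± SE; edgeR adjusted p = 0.00135), the opposite direction to that of pou5f3.2. The ratio of klf2 rose by 0.56 ± 0.10 (edgeR adjusted p = 0.00544), the same direction as pou5f3.2. Of 18 homeolog pairs in the list, the ratio rose in 1 and fell in 2, against 8.16% of all pairs called.

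The zinc finger gene sall4.S, whose mammalian counterpart is a partner of Oct4, fell by 1.26 ± 0.18 (edgeR adjusted p = 0.00551), and sall4.L stood at -0.87 ± 0.28 (0.119). The Krüppel-like genes klf2.S, klf2.L, klf5.L and klf5.S fell by 1.51 ± 0.11, 0.95 ± 0.13, 0.99 ± 0.18 and 0.97 ± 0.19 (log2 ± SE; edgeR adjusted p = 0.000286, 0.00436, 0.0147 and 0.0194). The growth regulator myc.L fell by 1.36 ± 0.23 (edgeR adjusted p = 0.0112). The rows klf5.L, klf5.S and myc.L complete the count and were named after their values were seen. Transcripts of sox2.S were rare, at 3.49 ± 1.78 CPM in control and 2.18 ± 0.814 in genistein, and sox2.L did not pass the filter.

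In BIO and Chiron no row of that list passed. The smallest p belonged to ventx2.2.L, a ventral homeobox gene, at 2.14 ± 0.52 in BIO (edgeR adjusted p = 0.367), and to sall1.S at 1.62 ± 0.45 in Chiron (0.645). The medians were 0.06 and 0.10 beside 0.01 and 0.02 over all genes. Without the 3 libraries that stood apart 7 rows were called in BIO and 6 in Chiron, where the same fit called 1.09% and 0.776% of all genes.

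Other POU genes did not pass in any compound against control. Their 7 rows had medians of -0.32 in genistein, 0.15 in BIO and 0.44 in Chiron, and the ubiquitous octamer factor gene pou2f1.L stood at -0.09 ± 0.38, 0.27 ± 0.38 and 0.44 ± 0.38 (log2 ± SE). The row with the smallest p was pou2f2.S in all 3, at 0.51, 0.87 and 1.03.

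Of 42 rows for maternal transcription factors, 3 fell in genistein and none rose, against 3.00% and 0.362% of all genes. They were ets2.L (-1.89 ± 0.14), the Wnt pathway factor tcf7l1.L (-0.60 ± 0.12) and the Nodal signal transducer smad2.L (-0.40 ± 0.09), with edgeR adjusted p = 0.000286, 0.0239 and 0.0434. None passed in BIO or Chiron, where the smallest p was that of ets2.L (-0.78 and -0.52). Among maternal regulators fixed for naming, foxh1.L stood at -0.14 ± 0.23 in genistein, vegt.L at 0.56 ± 0.23 and vegt.S at 0.19 ± 0.15. The list medians were -0.12, 0.09 and 0.14 in genistein, BIO and Chiron.

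Of 29 rows for maternal and germ plasm genes, bmp15.L (-1.06 ± 0.19) and the oocyte kinase mos.L (-0.58 ± 0.12) fell in genistein and none rose (edgeR adjusted p = 0.0144 and 0.0231), against 3.00% and 0.362% of all genes. The median was 0.24 in genistein, -0.35 in BIO and -0.38 in Chiron, with the lowest p in trim36.S in both (-0.80 and -0.71, not past the test). The maternal regulator zar1.S stood at 0.23 ± 0.26, -0.38 ± 0.27 and -0.47 ± 0.27. The geminin gene gmnn.L stood at 0.72 ± 0.48, -0.90 ± 0.48 and -0.89 ± 0.48, and gmnn.S at 0.19, 0.08 and 0.06.

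None of 40 mesendoderm rows passed in any compound against control. In BIO 39 of the 40 values were positive with a median of 1.37, and in Chiron 37 with a median of 0.63. In genistein 27 were positive with a median of 0.59. The smallest p belonged to the endoderm gene sox17b.1.S in BIO (1.43 ± 0.21, edgeR adjusted p = 0.0826) and Chiron (1.12 ± 0.21, 0.301), and to mespa.L in genistein (2.15 ± 0.69, 0.115). Without the 3 libraries that stood apart, 25 rows were called in BIO, 5 in Chiron and 3 in genistein, where the same fit called 1.09%, 0.776% and 6.95% of all genes. The count in genistein is thus near the share over all genes.

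The patterns most like those of the 6 rows over the 12 libraries were sought among 13050 named genes. The likeness is a description, since the libraries share their groups and the split into 3 libraries that stood apart. For pou5f3.2.L the closest were stx19.L, adgrf3.S and the ventral homeobox gene ventx2.2.S (Pearson r = 0.978, 0.971 and 0.968). For pou5f3.2.S they were sbk1l.L, sp5l.S and the siamois gene sia2.S (0.976, 0.975 and 0.974). In BIO and Chiron sia2.S stood at 1.26 ± 0.38 and 1.51 ± 0.38 against control and ventx2.2.S at 1.82 ± 0.48 and 1.35 ± 0.48 (log2 ± SE, none past the edgeR test). In genistein the former stood at -0.45 ± 0.40 and the latter at 0.64 ± 0.48.

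For pou5f3.3.L the closest were odc1.L, which encodes the first enzyme of polyamine synthesis, carhsp1.S and usp14.L (Pearson r = 0.970, 0.961 and 0.957). For pou5f3.3.S they were tarbp2.S, tmco6.S and psmd12.S (0.978, 0.959 and 0.958). For pou5f3.L they were cpt2.S, aamp.L and eef2.1.L (0.964, 0.947 and 0.945), and for pou5f3.S atg16l1.L, b4galt2.S and ndrg3.L (0.968, 0.951 and 0.942).

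Genes that flank the pou5f3 clusters in RefSeq did not pass in any compound against control. On the L side these were abca2.L, which encodes a lipid transporter, entpd2.L, which encodes an ectonucleotidase, and a pair known by identifiers only. On the S side they were clic3.S, edf1.S and entpd2.S, beside 1 with an identifier only. Most of these rows were low, with control means of 0.834 CPM (entpd2.S) to 4.50 CPM (LOC121396854), and only LOC108699886 stood higher (24.1 CPM). In genistein the 8 flanking rows stood between -0.98 ± 0.26 (LOC121396854, edgeR adjusted p = 0.0691) and 0.50 ± 0.48 (entpd2.S) on the log2 scale (± SE). In BIO they stood between -0.31 ± 0.25 (LOC121396854) and 0.69 ± 0.47 (entpd2.S). In Chiron they stood between -0.52 ± 0.25 (LOC121396854) and 0.82 ± 0.27 (LOC108698138, unadjusted p = 0.0114, edgeR adjusted p = 0.645), the latter near the 0.89 ± 0.36 of pou5f3.2.L. On the L side abca2.L and entpd2.L, each with 1 gene between it and the cluster, stood at 0.42 ± 0.34 and 0.21 ± 0.29 in BIO and at 0.14 ± 0.34 and 0.23 ± 0.29 in Chiron. On the S side clic3.S, next to the cluster, stood at 0.27 ± 0.34 and 0.11 ± 0.34.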

How the data were processed

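RNA of whole Xenopus laevis embryos was sequenced from poly-A enriched, strand-specific libraries, which the treatment label places in 4 groups of 3. The data are whole-number counts for 18892 genes, deposited by the authors without normalization, with 11091927 to 15486533 counts in a library. STAR 2.5.2b and edgeR are named in the submitters' processing notes, which state neither their roles nor their order. For the build, the annotation, the counter and any earlier filter, no statement was found in the labels or the file header.

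Counts were analysed with R 4.3.3 and edgeR 4.0.16 (filterByExpr, TMM, 1 quasi-likelihood model for all 12 libraries, 6 contrasts, Benjamini-Hochberg adjustment over the 18791 genes tested, calls at an adjusted p under 0.05). CPM are TMM-scaled. Standard errors are those implied by the F statistic. Ratios of copies within a library were tested by exact permutation over the 4 groups. The L to S ratios of 5134 homeolog pairs, with a mean of at least 10 counts in both copies, were fitted in 1 edgeR model with library as a term. That model was added after the data were seen. The scripts were tested on simulated data.

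The rows and lists were chosen with earlier results of these data known. The naming rule takes all pou5f3 rows. For each it takes the 3 named genes with the highest Pearson r over the 12 libraries, among those with a mean of at least 5 CPM, and for each cluster the 2 nearest counted genes on either side in RefSeq (Xenopus_laevis_v10.1, used for names and order only). From each list it takes up to 3 called members with the smallest p, or the 1 with the smallest p where none was called, beside sox3, sox2, foxh1, vegt, zar1, gmnn, sall4 and pou2f1. The ratio test was planned for 3 pou5f3 rows. It was applied to copies with L and S summed, since 6 rows were found. Exact tests of the 3 L to S ratios were not in the plan and were added, with 1 count added to both copies. DESeq2 1.42.0 was 1 of the alternatives. Replicate numbers showed no pairing across all groups, and whether they pair any of the samples is not known.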

Additional observations from a re-analysis of the deposited data

How the results depend on the processing

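Counts of 0 to 57 per library limited the unnumbered rows, and 3 libraries to a group limited all comparisons. The L to S shift of pou5f3.2 in genistein kept its direction and its call in every fit run of the model of both copies. That model was not run with RLE size factors, library totals only, DESeq2 or the 2 compared groups alone. No call of a numbered copy against control was made in the main edgeR fit of all 12 libraries. Some other fits of all 12 libraries made such calls, which are given below. Fits of the 2 compared groups alone have fewer samples, and leaving out the 3 libraries that stood apart leaves 1 genistein library. The cause of the changes was not tested for any of the settings. Values are log2 differences unless they are counts, and for the exact tests the range of the group means in log2. None of the values that turned in sign passed the test.

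With RLE size factors, pou5f3.3.S (-0.015) turned in sign in Chiron against control. In this fit, pou5f3.L (-1.58) did not pass in genistein against Chiron.

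With library totals only, pou5f3.2.S (-1.42) passed in genistein against BIO. In this fit, pou5f3.2.S (-1.34) passed in genistein against Chiron. The number of genes called was 3 in BIO against control, 6 in Chiron against control and 693 in genistein against Chiron.

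With DESeq2, pou5f3.3.S (-0.015) turned in sign in Chiron against control. In this fit, pou5f3.3.L (0.36) passed in genistein against control and pou5f3.L (1.63) passed in BIO against control. In this fit, pou5f3.2.S (-1.18) and pou5f3.3.L (0.22) passed in genistein against BIO and pou5f3.2.S (-1.10), pou5f3.3.L (0.29) and pou5f3.3.S (0.40) passed in genistein against Chiron. The number of genes called was 1710 in genistein against control, 114 in BIO against control, 55 in Chiron against control, 3877 in genistein against BIO, 3931 in genistein against Chiron and 2 in BIO against Chiron. In genistein against control, 5 of the maternal transcription factors list, 5 of the maternal and germ plasm list and 1 of the mesendoderm list were called. In BIO against control, 4 of the pluripotency partners list, 1 of the maternal transcription factors list and 7 of the mesendoderm list were called. In Chiron against control, 3 of the mesendoderm list were called.

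With only the 2 compared groups in the fit, pou5f3.3.S (-0.014) turned in sign in Chiron against control. In this fit, pou5f3.L (-2.41) and pou5f3.S (-3.66) did not pass in genistein against BIO and pou5f3.L (-1.61) and pou5f3.S (-3.96) did not pass in genistein against Chiron. The number of genes called was 1 in genistein against control, 0 in BIO against control, 0 in genistein against BIO, 17 in genistein against Chiron and 2 in BIO against Chiron. In genistein against control, 0 of the pluripotency partners list, 1 of the maternal transcription factors list and 0 of the maternal and germ plasm list were called.

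With the replicate number as a block, pou5f3.L (-1.63) did not pass in genistein against Chiron. In this fit, pou5f3.2.S (-1.32) passed in genistein against BIO. The ratio of pou5f3.2 L to S (0.78) and the ratio of pou5f3 L to S (2.06) did not pass in the exact tests over the 4 groups. The number of genes called was 400 in genistein against control, 340 in genistein against BIO and 268 in genistein against Chiron. The number of homeolog pairs called was 7 in BIO against control. In genistein against control, 1 of the maternal and germ plasm list was called.

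With the mitochondrial share as covariate, pou5f3.3 L to S (0.00085) turned in sign in genistein against control. In this fit, pou5f3.2 L to S (0.064) and pou5f3 L to S (-0.20) turned in sign in BIO against control and pou5f3.2 L to S (0.032) turned in sign in Chiron against control. In this fit, pou5f3.L (-1.47) did not pass in genistein against Chiron and pou5f3.3.L (0.32) passed in genistein against control. In this fit, pou5f3.2.L (1.52) and pou5f3.2.S (1.43) passed in BIO against control and pou5f3.2.L (1.33) and pou5f3.2.S (1.29) passed in Chiron against control. In this fit, pou5f3.2.L (-1.19) and pou5f3.2.S (-1.79) passed in genistein against BIO and pou5f3.2.S (-1.65) passed in genistein against Chiron. The number of genes called was 3654 in genistein against control, 184 in BIO against control, 117 in Chiron against control, 696 in genistein against Chiron and 1 in BIO against Chiron. The number of homeolog pairs called was 808 in genistein against control, 23 in BIO against control and 21 in Chiron against control. In genistein against control, 12 of the pluripotency partners list, 12 of the maternal transcription factors list, 9 of the maternal and germ plasm list and 3 of the mesendoderm list were called. In BIO against control, 9 of the pluripotency partners list, 1 of the maternal transcription factors list and 23 of the mesendoderm list were called. In Chiron against control, 4 of the pluripotency partners list, 1 of the maternal transcription factors list and 4 of the mesendoderm list were called.

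Without control 1, genistein 1 and genistein 3, pou5f3.2.L (-0.38) and pou5f3.3 L to S (0.041) turned in sign in genistein against control. In this fit, pou5f3.2 L to S (0.018) and pou5f3 L to S (-0.11) turned in sign in BIO against control and pou5f3.3 L to S (0.012) turned in sign in genistein against BIO. In this fit, pou5f3.3 L to S (0.039) turned in sign in genistein against Chiron and pou5f3.S (-2.56) did not pass in genistein against BIO. In this fit, pou5f3.L (-1.46) and pou5f3.S (-2.84) did not pass in genistein against Chiron and pou5f3.2.S (-1.13) passed in genistein against control. In this fit, pou5f3.2.L (1.28), pou5f3.2.S (1.27) and pou5f3.L (1.64) passed in BIO against control and pou5f3.2.L (1.18) and pou5f3.2.S (1.19) passed in Chiron against control. In this fit, pou5f3.2.L (-1.67) and pou5f3.2.S (-2.40) passed in genistein against BIO and pou5f3.2.L (-1.56) and pou5f3.2.S (-2.32) passed in genistein against Chiron. The ratio of pou5f3 to pou5f3.2 (0.49), the ratio of pou5f3.2 L to S (0.74) and the ratio of pou5f3 L to S (1.18) did not pass in the exact tests over the 4 groups. The number of genes called was 1309 in genistein against control, 205 in BIO against control, 146 in Chiron against control and 2 in BIO against Chiron. The number of homeolog pairs called was 34 in BIO against control and 27 in Chiron against control. In genistein against control, 6 of the maternal transcription factors list, 5 of the maternal and germ plasm list and 3 of the mesendoderm list were called. In BIO against control, 7 of the pluripotency partners list, 2 of the maternal transcription factors list, 2 of the maternal and germ plasm list and 25 of the mesendoderm list were called. In Chiron against control, 6 of the pluripotency partners list and 5 of the mesendoderm list were called.

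The replicate numbers showed no pairing across all groups: 5 of 18 same-numbered pairs of libraries had deviations correlated over 0.1 (range -0.54 to 0.75). Of 36 differently numbered pairs, 12 did so (range -0.77 to 0.54). Control and genistein correlated at 0.65 for replicate 1, 0.75 for replicate 2 and -0.23 for replicate 3. Whether the numbers pair any of the samples is not known. The block is thus no check of pairing.

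The ranges over fits without 1 library at a time follow for the results that changed in at least 1 of them; the highest gene counts in the 3 genistein comparisons came without genistein 2. Genistein against control gave 0.22 to 0.93 for pou5f3.2.L, -0.48 to 0.18 for pou5f3.2.S, 0.29 to 0.43 for pou5f3.3.L and 0.28 to 0.51 for pou5f3.3.S. Genistein against control also gave -3.56 to -1.52 for pou5f3.S, 181 to 4757 for genes called, -0.10 to 0.031 for pou5f3.3 L to S ratio and 212 to 1073 for homeolog pairs called. BIO against control gave -0.019 to 0.15 for pou5f3.3.S, 0 to 28 for genes called, -0.074 to 0.017 for pou5f3.2 L to S ratio and -0.12 to 0.40 for pou5f3 L to S ratio. BIO against control also gave 0 to 21 for homeolog pairs called. Chiron against control gave -0.056 to 0.11 for pou5f3.3.S, 0 to 14 for genes called, -0.091 to 0.0036 for pou5f3.2 L to S ratio and 0 to 20 for homeolog pairs called. Genistein against BIO gave -1.50 to -0.83 for pou5f3.2.S, 0.24 to 0.48 for pou5f3.3.S, -2.74 to -2.06 for pou5f3.L and -5.15 to -3.12 for pou5f3.S. Genistein against BIO also gave 48 to 8811 for genes called and 28 to 1484 for homeolog pairs called. Genistein against Chiron gave -0.67 to 0.059 for pou5f3.2.L, -1.43 to -0.76 for pou5f3.2.S, 0.19 to 0.35 for pou5f3.3.L and 0.27 to 0.52 for pou5f3.3.S. Genistein against Chiron also gave -1.95 to -1.27 for pou5f3.L, -5.44 to -3.41 for pou5f3.S, 107 to 9125 for genes called and 1.82 to 3.71 for pou5f3 L to S ratio. Genistein against Chiron also gave 23 to 1478 for homeolog pairs called. BIO against Chiron gave -0.017 to 0.19 for pou5f3.2.L, -0.074 to 0.22 for pou5f3.2.S, -0.60 to 0.075 for pou5f3.S and 0 to 1 for genes called. BIO against Chiron also gave -0.025 to 0.056 for pou5f3.2 L to S ratio and -0.027 to 0.071 for pou5f3.3 L to S ratio. The exact tests over the 4 groups gave 0.93 to 1.31 for the ratio of pou5f3.2 to pou5f3.3, 1.24 to 3.03 for the ratio of pou5f3 to pou5f3.2, 0.74 to 0.82 for the ratio of pou5f3.2 L to S and 1.76 to 2.49 for the ratio of pou5f3 L to S.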
